A study of Mus musculus with 6 samples.

Results

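DNA methylation is written, copied and removed by a small set of enzymes and cofactors, and 7 of them could be followed here across 3 kinds of mouse cell. The rule named 10 genes, the DNA methyltransferases Dnmt1, Dnmt3a and Dnmt3b, the cofactors Dnmt3l, Uhrf1 and Hells, the TET enzymes Tet1 and Tet2, and the DNA glycosylases Tdg and Mbd4, and took every array probe that the platform annotation pairs with one of them. This gave 8 probes for 7 genes, with Dnmt3l read by 2 probes, out of 45281 probes in all. No named probe was held for the other 3 (Dnmt3a, Tet2 and Hells), which were not analysed here. All 8 member probes passed the filter on dim probes, a detection p-value below 0.01 on at least 2 of the 6 arrays, which kept 10673 probes.

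RNA levels were read on Illumina mouse BeadChips, 2 arrays for each of 3 groups, all from male cells of a 129 x MF1 background that carry a Nanog transgene, the embryonic stem cells included. The mESC group was embryonic stem cells grown on fibronectin in serum-free N2B27 medium with LIF at 1000 U/ml and the inhibitors CHIR99021 (3 µM, against GSK3) and PD0325901 (1 µM, against MEK), a mixture known as 2i. The rest were primordial germ cell-like cells (PGCLCs), cultured counterparts of the embryo's germ line precursors, collected on day 4 after epiblast-like cells were moved to GK15 medium. Cytokine PGCLCs received BMP4 and BMP8A (500 ng/ml each), LIF (1000 U/ml), EGF (50 ng/ml) and SCF (100 ng/ml), and Nanog PGCLCs received doxycycline at 0.7 µg/ml, given to induce Nanog. The labels name neither the promoter that drives the transgene nor the number of clones, and they do not say whether PGCLCs were sorted or whether replicates were separate cultures, so p-values measure only the spread between arrays, which may be technical. Every difference from mESCs is also a difference of medium, and Nanog PGCLCs differ from cytokine PGCLCs by the listed cytokines as well as by doxycycline, so these cannot be told apart. No array read the epiblast-like cells, so rises and falls below are differences from mESCs and not from those cells.

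Methylation of cytosine in CpG dinucleotides is placed on new sites by Dnmt3a and Dnmt3b, which Dnmt3l assists although it has no catalytic activity of its own. After each round of DNA replication Uhrf1 recognises the hemimethylated sites of the new DNA and brings in Dnmt1, which restores the mark. TET enzymes oxidise methylcytosine, and Tdg and Mbd4 cut out altered bases for base excision repair. Mouse primordial germ cells are known for the nearly complete loss of DNA methylation that follows their specification, and mESCs in 2i medium also carry little of it.

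The start regions of the members whose results follow differ in CpG content, the substrate of these enzymes, and are shown for that reason. They come from RefSeq (GRCm38.p6), 250 bases before and 50 after an annotated start, and where a gene has several starts the window with the most CpG dinucleotides is given. CpG dinucleotides are in capitals in the first pair, at chr2:153649199-153649498 (plus strand) and chr10:78042037-78042336 (plus strand).
Dnmt3b: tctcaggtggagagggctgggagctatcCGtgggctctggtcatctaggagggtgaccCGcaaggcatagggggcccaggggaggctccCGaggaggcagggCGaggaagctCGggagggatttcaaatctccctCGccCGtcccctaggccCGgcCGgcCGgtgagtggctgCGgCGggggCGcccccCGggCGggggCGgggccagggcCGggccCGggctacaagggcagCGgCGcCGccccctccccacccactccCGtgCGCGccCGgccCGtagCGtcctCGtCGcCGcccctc
Dnmt3l: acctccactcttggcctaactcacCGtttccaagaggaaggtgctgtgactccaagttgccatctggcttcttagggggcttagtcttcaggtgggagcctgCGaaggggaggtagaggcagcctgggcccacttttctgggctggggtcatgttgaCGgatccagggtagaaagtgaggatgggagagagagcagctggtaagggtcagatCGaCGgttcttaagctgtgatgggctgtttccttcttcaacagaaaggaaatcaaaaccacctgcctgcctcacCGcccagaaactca
The Dnmt3b window held 30 CpG dinucleotides, a number reached by 11.7% of all 32851 promoter windows, whose median was 7. The Dnmt3l window held 6, and 56.4% of windows held at least as many. The other Dnmt3l windows held 4 and 3. By these windows Dnmt3b and Dnmt3l, which moved alike below, stand at different CpG densities. Which annotated start each gene uses in these cells is not known here.

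Dnmt1 and Uhrf1, which act together at replicating DNA but moved in opposite directions below, are shown with motif matches in capitals, at chr9:20952574-20952873 (minus strand) and chr17:56304063-56304362 (plus strand).
Dnmt1: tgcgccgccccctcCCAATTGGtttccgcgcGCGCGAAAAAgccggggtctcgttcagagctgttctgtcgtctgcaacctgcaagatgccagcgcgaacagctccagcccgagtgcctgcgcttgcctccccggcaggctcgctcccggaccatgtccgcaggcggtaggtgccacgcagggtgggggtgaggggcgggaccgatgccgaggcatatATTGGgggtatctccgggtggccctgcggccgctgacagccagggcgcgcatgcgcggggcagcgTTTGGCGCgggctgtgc
Uhrf1: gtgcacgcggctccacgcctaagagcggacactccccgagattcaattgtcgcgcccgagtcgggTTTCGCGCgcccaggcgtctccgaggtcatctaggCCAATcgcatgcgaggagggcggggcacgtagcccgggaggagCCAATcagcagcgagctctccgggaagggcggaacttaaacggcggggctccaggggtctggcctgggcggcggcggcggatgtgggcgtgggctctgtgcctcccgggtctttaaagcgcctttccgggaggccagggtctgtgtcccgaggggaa
Capitals mark TTTNNCGC, a form of the site for the cell cycle factors of the E2F family, and CCAAT, each on either strand and with overlapping matches joined. The Dnmt1 window had 3 matches to the first, some of them overlapping, and 3 to the second, and the Uhrf1 window had 1 and 2. In the Dnmt1 windows not shown TTTNNCGC had 0 matches, and in the Uhrf1 window not shown it had 1. TTTNNCGC lay in 5.17% of all windows and CCAAT in 37.4%. Since TTTNNCGC itself holds a CpG, windows picked for their CpG content are not like all windows in this respect. Of the members without values here, Hells also had 1 match to TTTNNCGC, while Dnmt3b, Dnmt3l, Tet1, Tdg and Mbd4 had 0. The octamer ATGCAAAT (1.74% of windows) and the PRDM14 motif GGTCTCTAA (0.256%) lay in 0 of the 17 member windows, and the STAT motif TTCNNNGAA (8.30%) lay in 1 Dnmt3l window that is not shown and in that of Tdg. A match describes letters and does not show that a factor binds there.

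The mESC arrays detected fewer probes, 9220 and 8788, than the PGCLC arrays with 9871 to 10028. Their lowest detected signals were higher, at 7.06 and 7.17 (normalized log2 intensity) against 6.88 to 6.91. Median raw intensity ran from 226.2 to 294.3, with mESC replicate 2 (280.6) and Nanog PGCLC replicate 2 (294.3) brightest before normalization. Replicates correlated at 0.991 to 0.994 across kept probes, which are not independent replicates. Of 8 germ cell markers 6 were tested, and all 6 were detected on both arrays of each PGCLC group and 4 of them on both mESC arrays. Their summed normalized intensity was 4201 to 4444 in mESCs, 14097 to 14488 in cytokine PGCLCs and 11357 to 11673 in Nanog PGCLCs. For 11 naive stem cell markers the sums were 32487 to 32855, 29957 to 31862 and 29002 to 29350 in the same order. Against mESCs, 5 of them were called lower and 1 higher in cytokine PGCLCs, and 5 lower and 2 higher in Nanog PGCLCs. Of all genes 24.1% and 24.9% were called lower in these comparisons, and 29.3% and 27.4% higher. Of the 6 tested germ cell markers, 6 were called higher than in mESCs in cytokine PGCLCs and 5 in Nanog PGCLCs, with 0 lower. Kit did not change in Nanog PGCLCs (-0.01, limma adjusted p = 0.957). The summed germ cell markers were thus highest in the cells labelled as PGCLCs. Tfap2c, the brightest of them in both PGCLC groups, weighs most in those sums. No fibroblast marker was among the tested genes. The 2 probes for Nanog itself disagreed. One read 12.73 and 12.60 in Nanog PGCLCs, 11.49 and 11.56 in mESCs, and 10.94 and 10.80 in cytokine PGCLCs, and was higher in Nanog PGCLCs by 1.14 and 1.80 log2 units (limma adjusted p = 6.8e-05 and 3.5e-05). The other read 12.05 and 12.25, 12.34 and 12.47, and 12.53 and 12.53 in the same order, and was lower in Nanog than in cytokine PGCLCs by 0.38 log2 units (limma adjusted p = 0.0414). Which of them reads the transgene is not known here.

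Dnmt3b, Dnmt3l and Uhrf1 were lower than in mESCs in both PGCLC groups, Tet1 and Tdg were called lower in cytokine PGCLCs, and Dnmt1 was higher in both. Dnmt3l counts with 2 probes below. In cytokine PGCLCs 6 of the 8 probes were lower, 1 was higher and 1 was not called, where 52.6% of all probes were called, 24.9% lower and 27.7% higher (limma, adjusted p below 0.05). In Nanog PGCLCs 4 were lower, 1 was higher and 3 were not called, where 51.6% of all probes were called, 25.1% lower and 26.5% higher. The median change over the 8 probes was -0.66 log2 units in cytokine PGCLCs and -0.31 in Nanog PGCLCs, against -0.00 and -0.01 over all probes. Both comparisons share the mESC arrays. A direct comparison of the PGCLC groups found 4 probes higher in Nanog PGCLCs, 0 lower and 4 not called, where 20.1% of all probes were called, 10.4% higher and 9.72% lower. In bulk RNA, fewer cells with a transcript and less of it per cell cannot be told apart.

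**Figure D1:**
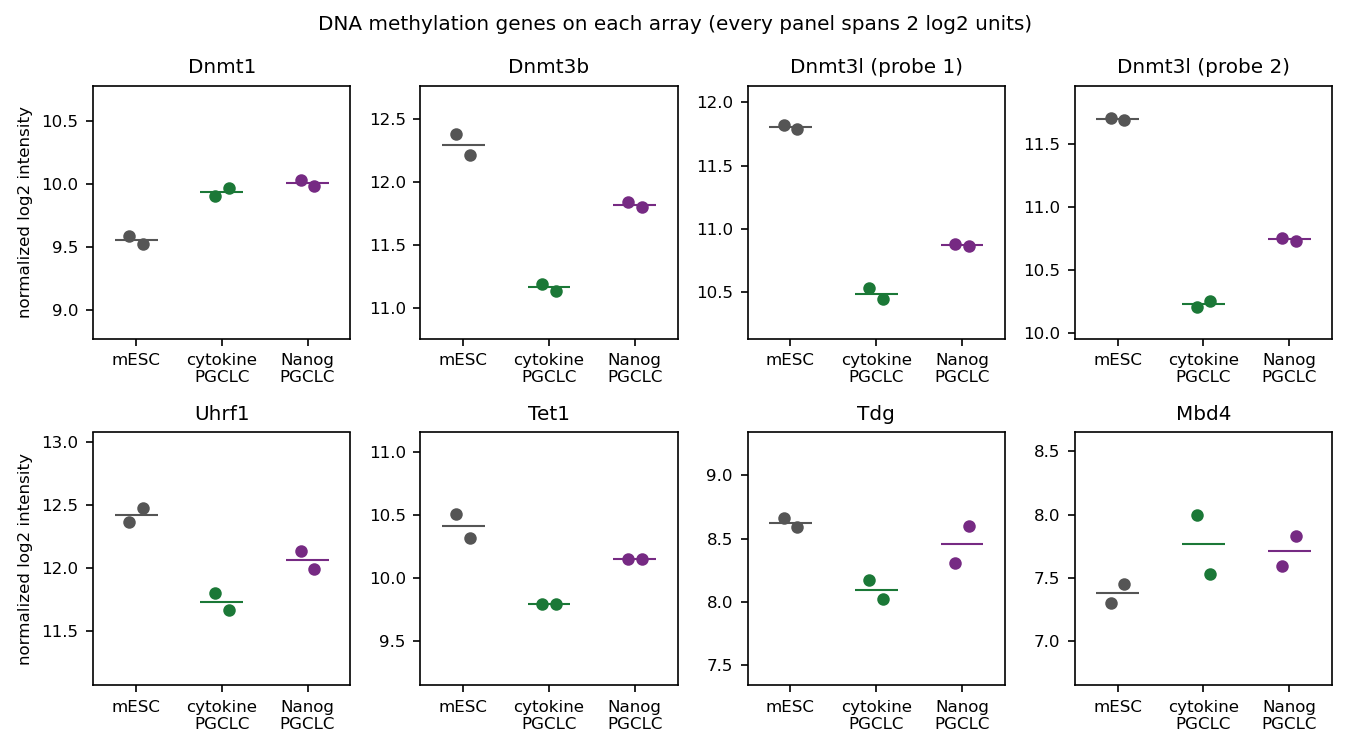
Normalized log2 intensity (vertical axis) of the 8 member probes on each of the 6 arrays, with 2 points and a line at the mean for each of the 3 groups (horizontal axis). Every panel spans 2 log2 units, but levels of different probes cannot be compared. Dnmt3b and both Dnmt3l probes form 3 separate steps with mESCs highest and cytokine PGCLCs lowest, and Dnmt1 is lowest in mESCs.

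Among the writers of new methylation, Dnmt3b was highest in mESCs, lower in Nanog PGCLCs and lowest in cytokine PGCLCs. The mESC arrays read 12.38 and 12.21 (normalized log2 intensity), the Nanog PGCLC arrays 11.84 and 11.80, and the cytokine PGCLC arrays 11.19 and 11.14. No array of 1 group overlapped another group. The raw intensities, before any correction, were 5154.5 and 5487.5 in mESCs, 3512 and 4527.8 in Nanog PGCLCs, and 2409.2 and 2322.2 in cytokine PGCLCs. Dnmt3b was 2.19-fold lower in cytokine PGCLCs than in mESCs (-1.13 ± 0.10 log2 units, ± the standard error, n = 2 per group, limma adjusted p = 5.9e-05). In Nanog PGCLCs it was 1.39-fold lower than in mESCs (-0.47 ± 0.10, limma adjusted p = 0.0045). Larger changes against mESCs were seen for 7.88% of all probes in cytokine PGCLCs and for 35.7% in Nanog PGCLCs. The PGCLC groups differed by 0.66 ± 0.10, or 1.58-fold, with Nanog PGCLCs higher (limma adjusted p = 0.0035), and 6.46% of all probes differed by more between these groups. These 3 calls held in all 16 alternative settings, where the changes ranged from -1.22 to -1.05, from -0.57 to -0.39 and from 0.61 to 0.71.

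Dnmt3l, the catalytically inactive partner of the de novo enzymes, showed the largest falls among the members on both of its probes. The probe annotated to NM_001081695 (probe 1 in the plots) read 11.82 and 11.79 in mESCs, 10.88 and 10.86 in Nanog PGCLCs, and 10.53 and 10.44 in cytokine PGCLCs. The probe annotated to NM_019448 (probe 2) read 11.71 and 11.69, then 10.76 and 10.73, then 10.21 and 10.26. Both probes put the groups in the order seen for Dnmt3b, without overlap. Against mESCs, the 2 probes were lower 2.5-fold and 2.77-fold in cytokine PGCLCs (-1.32 ± 0.09 and -1.47 ± 0.09, n = 2 per group, limma adjusted p = 2.0e-05 and 1.2e-05). In Nanog PGCLCs they were lower 1.91-fold and 1.94-fold (-0.94 ± 0.09 and -0.96 ± 0.09, limma adjusted p = 0.000107 and 8.3e-05). Larger changes were seen for 5.34% and 3.67% of all probes in cytokine PGCLCs, and for 11.8% and 11.2% in Nanog PGCLCs. Calls against mESCs held in every alternative setting for both probes.

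The difference in Dnmt3l between the PGCLC groups was smaller and less firmly called. Nanog PGCLCs were higher by 0.39 ± 0.09 on probe 1 and by 0.51 ± 0.09 on probe 2 (limma adjusted p = 0.0222 and 0.0070). Leaving out any 1 of the 4 PGCLC arrays ended the call for probe 1, at 0.34 to 0.43 and limma adjusted p from 0.0751 (without cytokine PGCLC replicate 1) to 0.122 (without cytokine PGCLC replicate 2). For probe 2 the call ended only without cytokine PGCLC replicate 1 (0.49, adjusted p = 0.0560). The size of the difference moved little in these settings, while each left 1 array in a group.

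The maintenance genes split, with Dnmt1 higher and Uhrf1 lower in PGCLCs. Dnmt1, the maintenance methyltransferase, read 10.03 and 9.98 in Nanog PGCLCs, 9.90 and 9.97 in cytokine PGCLCs, and 9.59 and 9.52 in mESCs. All 4 PGCLC arrays lay above both mESC arrays. Dnmt1 was 1.37-fold higher in Nanog PGCLCs than in mESCs (0.45 ± 0.09, limma adjusted p = 0.0043) and 1.30-fold higher in cytokine PGCLCs (0.38 ± 0.09, limma adjusted p = 0.0098). The second call was lost without mESC replicate 2 (0.34, adjusted p = 0.0505) and without cytokine PGCLC replicate 2 (0.34, adjusted p = 0.0591). Changes of this size were common, since 37.7% and 45.4% of all probes changed by more in these comparisons. Between the PGCLC groups the difference was 0.07 with a 95% interval from -0.14 to 0.29 (limma adjusted p = 0.620).

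Uhrf1, which recruits Dnmt1 to hemimethylated DNA, ran the other way. The values were 12.37 and 12.48 in mESCs, 12.14 and 11.99 in Nanog PGCLCs, and 11.80 and 11.67 in cytokine PGCLCs. The groups did not overlap and stood in the same order as for Dnmt3b. Uhrf1 was 1.62-fold lower in cytokine PGCLCs than in mESCs (-0.69 ± 0.10, limma adjusted p = 0.000918) and 1.29-fold lower in Nanog PGCLCs (-0.36 ± 0.10, limma adjusted p = 0.0203). Of all probes 21% and 46.7% changed by more in these comparisons, so the change in Nanog PGCLCs was of a common size. The Nanog PGCLC call failed without mESC replicate 2 (-0.30, adjusted p = 0.0955), and it also failed without replicate 2 of the Nanog PGCLCs (-0.29, adjusted p = 0.105). Between the PGCLC groups Uhrf1 differed by 0.33, with a 95% interval from 0.09 to 0.57, and missed the threshold (limma adjusted p = 0.0590). It passed in 6 of 16 alternative settings, among them the authors' value table (0.31, adjusted p = 0.0067) and no background correction (0.31, adjusted p = 0.0055).

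**Figure D2:**
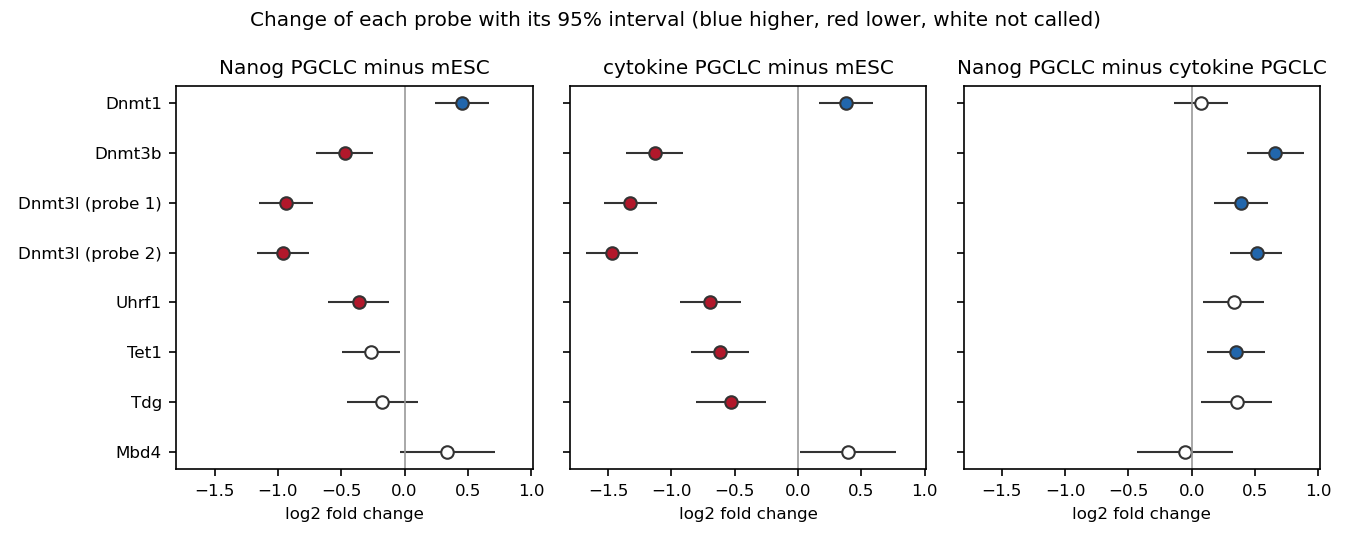
Log2 fold change of each member probe (points) with its 95% interval (lines) in the 3 comparisons, from the limma fit over 10673 probes. Blue points were called higher, red points lower and white points were not called. Dnmt3b, Dnmt3l and Uhrf1 lie left of 0 against mESCs in both PGCLC groups and Dnmt1 lies right of it.

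Of the enzymes that act in removal, Tet1, which oxidises methylcytosine, was lower in cytokine PGCLCs. It read 10.51 and 10.32 in mESCs, 10.15 and 10.15 in Nanog PGCLCs, and 9.80 and 9.80 in cytokine PGCLCs, again without overlap. The fall in cytokine PGCLCs was 1.53-fold (-0.62 ± 0.10, limma adjusted p = 0.0013) and held in all 16 alternatives. Of all probes 25.5% changed by more in that comparison. In Nanog PGCLCs the change of -0.27 ± 0.10 narrowly missed the threshold (95% interval from -0.49 to -0.04, limma adjusted p = 0.0523). It was called in 7 alternatives, among them the authors' value table (-0.23, adjusted p = 0.0138) and the fit without mESC replicate 2 (-0.36, adjusted p = 0.0396). Without mESC replicate 1 it was -0.18 (adjusted p = 0.248), and with median scaling -0.10 (adjusted p = 0.503). Nanog PGCLCs were higher than cytokine PGCLCs by 0.35 ± 0.10 (limma adjusted p = 0.0419). That call was lost when any 1 of the 4 PGCLC arrays was left out (0.35 in each, adjusted p from 0.122 without Nanog PGCLC replicate 1 to 0.158 without cytokine PGCLC replicate 1), without the filter on dim probes (adjusted p = 0.0970) and with the replicate number as a block (adjusted p = 0.0516).

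Tdg, a glycosylase that excises oxidised methylcytosine, was also lower in cytokine PGCLCs, with a wider spread. Its values were 8.66 and 8.59 in mESCs, 8.31 and 8.60 in Nanog PGCLCs, and 8.17 and 8.02 in cytokine PGCLCs. Nanog PGCLC replicate 2 reached the mESC arrays, and cytokine PGCLCs lay below all others. Tdg was 1.44-fold lower in cytokine PGCLCs than in mESCs (-0.53 ± 0.12, limma adjusted p = 0.0072), a call lost without cytokine PGCLC replicate 2 (-0.46, adjusted p = 0.0567) and with median scaling (-0.28, adjusted p = 0.152). Larger changes in cytokine PGCLCs were seen for 31.1% of all probes. In Nanog PGCLCs the Tdg change was -0.17 with a 95% interval from -0.45 to 0.11 (limma adjusted p = 0.258). The PGCLC groups differed by 0.36 ± 0.12, which was not called (limma adjusted p = 0.0764). It was called in 3 of 16 alternatives, among them the fit without Nanog PGCLC replicate 1 (0.50, adjusted p = 0.0497). A separate probe is annotated to the pseudogene Tdg-ps2 and was detected on 1 of 6 arrays. Whether the Tdg probe also reads such copies is not known here.

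Mbd4, a glycosylase for mismatched thymine at CpG sites, was called in no comparison. Its arrays read 7.30 and 7.45 for mESCs, 8.0 and 7.53 for cytokine PGCLCs, and 7.59 and 7.83 for Nanog PGCLCs. The mESC values lay near the lowest signals detected on those arrays (7.06 and 7.17). Both cytokine PGCLC arrays lay 0.47 apart, the widest replicate gap of any member. The changes against mESCs were 0.39 (95% interval 0.02 to 0.77, limma adjusted p = 0.0755) in cytokine PGCLCs and 0.34 (-0.04 to 0.72, adjusted p = 0.116) in Nanog PGCLCs. The first was called without cytokine PGCLC replicate 2 (0.63, adjusted p = 0.0193) and was 0.16 without cytokine PGCLC replicate 1 (adjusted p = 0.435). With median scaling both were called, at 0.65 and 0.66, and with cyclic loess too, at 0.47 and 0.45.

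By group means, the order mESC, then Nanog PGCLC, then cytokine PGCLC was shared by Dnmt3b, Dnmt3l, Uhrf1, Tet1 and Tdg. For Tdg the arrays of the mESC and Nanog PGCLC groups overlapped. Neighbours in it were called different at both steps for Dnmt3b and Dnmt3l, at the first step only for Uhrf1, at the second only for Tet1, and at neither for Tdg. The share of all genes with this order, or with groups that do not overlap, was not counted, so neither can be called particular to the members. Other genes had the same profile over the 6 arrays. By Euclidean distance between mean-centred log2 values, the nearest of 6823 genes to Dnmt3b were Tpm1 (0.12), Wdr82 (0.16) and Nuak2 (0.16), against a median distance of 1.24. The nearest to Dnmt3l were Ptpmt1 (0.14), Tmsb10 (0.14) and S100a10 (0.15), against a median of 1.43.

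Markers of other cells also differed between the groups. Embryonic blood markers (3 of 6 tested) summed to 1625 to 1658 in cytokine PGCLCs, where all 3 were detected on both arrays, 155 to 175 in Nanog PGCLCs and 191 to 202 in mESCs, where none was. Trophoblast markers (3 of 7 tested) summed to 925 to 933, 321 to 333 and 516 to 531 in the same order. The 3 did not move alike. Cdx2, detected only in cytokine PGCLCs, and Krt8 were called higher there than in mESCs, where 29.3% of all genes were. Tfap2a was lower there by 0.21 log2 units without a call. Primed epiblast markers (5 of 7 tested) had their highest sum in Nanog PGCLCs at 9238 to 9581, with 5418 to 5726 in cytokine PGCLCs and 4008 to 4389 in mESCs. Lefty1 and Lefty2, the brightest of the 5 in Nanog PGCLCs, weigh most in that sum. Between the PGCLC groups 3 of the 5 were called higher in Nanog PGCLCs, where 10.5% of all genes were. Nodal was lower there by 0.33 log2 units without a call. Endoderm, mesoderm and neural markers had 1 tested gene each, with sums of 130 to 169, 104 to 149 and 77 to 193 over all arrays. Whether such cells were present, and what part they had in the differences between the PGCLC groups, was not tested.

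Of 8 genes listed as methylation readers 5 were tested, and 4 were higher and 0 lower in cytokine PGCLCs. Their median change was 1.00 log2 units, against 0.01 over all genes, of which 53.4% were called, 29.3% higher and 24.1% lower. In Nanog PGCLCs 3 were higher and 0 lower (median 0.38, against -0.00 over all genes, 52.4% called, 27.4% higher and 24.9% lower), or 2 with the authors' value table. The difference between these counts is Mbd1, which was below detection in mESCs and Nanog PGCLCs alike. Uhrf2, the relative of Uhrf1, was 2.48-fold higher in cytokine PGCLCs (10.01 and 10.11 in mESCs, 11.36 and 11.38 in cytokine PGCLCs, 1.31 ± 0.10, limma adjusted p = 2.8e-05). At 10.82 and 10.68 in Nanog PGCLCs it was 1.61-fold higher than in mESCs (0.69 ± 0.10, limma adjusted p = 0.000683). It was thus lower in Nanog than in cytokine PGCLCs by 0.62 log2 units (adjusted p = 0.0043), the reverse of the Uhrf1 order. All 3 Uhrf2 probes gave these directions.

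Among the other readers, Mbd1, which binds methylated CpG, was detected only on the cytokine PGCLC arrays, where it was at least 1.11-fold higher than in mESCs and at least 1.29-fold higher than in Nanog PGCLCs (limma adjusted p = 7.9e-05 and 0.0023). Zbtb33 (Kaiso), a zinc finger protein that binds methylated DNA, was not detected on either mESC array. It was at least 1.83-fold higher in cytokine PGCLCs and at least 1.36-fold higher in Nanog PGCLCs (limma adjusted p = 0.000331 and 0.0056). Over the reader list, 4 of 5 genes were lower in Nanog than in cytokine PGCLCs, where 20.7% of all genes were called, 10.5% higher and 10.2% lower. The Zbtb33 difference (-0.43, limma adjusted p = 0.0432) was lost in 5 of 16 alternatives, and without cytokine PGCLC replicate 1 it was -0.28. Mbd2, a reader tied to a repressor complex and named after its values were seen, was among the 4 (-0.58, limma adjusted p = 0.0090), with 0.65 in cytokine and 0.08 in Nanog PGCLCs against mESCs.

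**Figure D3:**
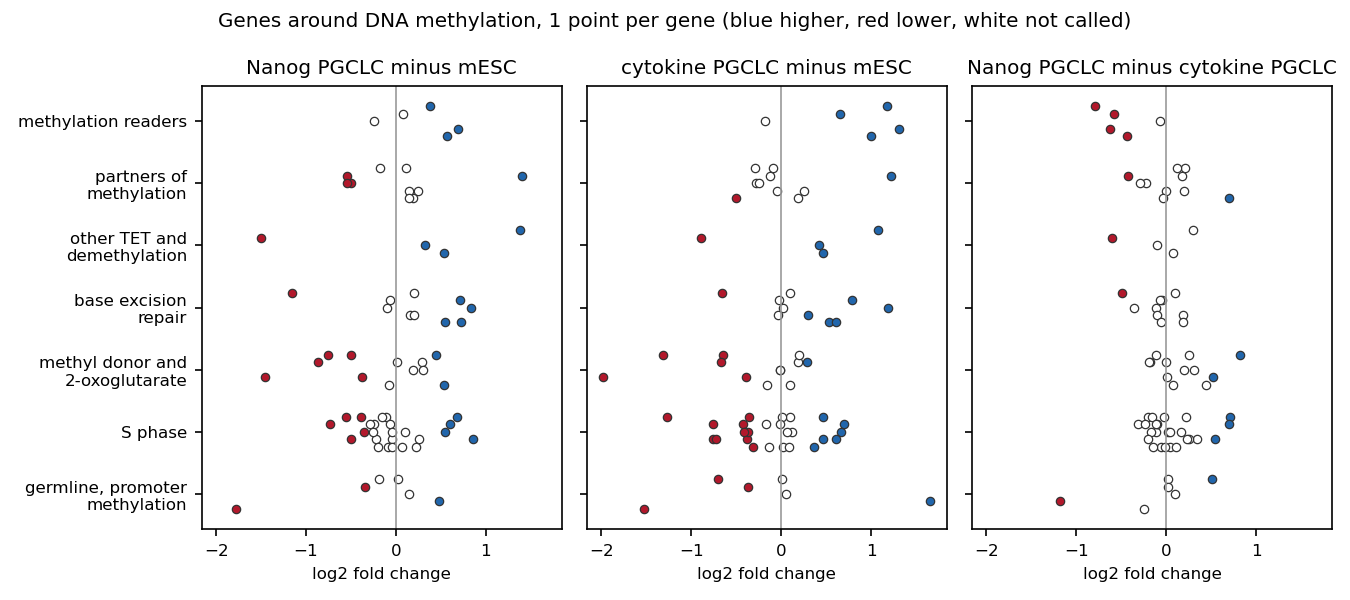
Log2 fold change (horizontal axis) of every tested gene of 7 lists around DNA methylation (rows), each gene read by its brightest named probe, in the 3 comparisons. Points are genes, blue where called higher, red where called lower and white where not called, with vertical offsets only to separate them. Genes of the methylation reader list lie right of 0 against mESCs except for Mbd3, while the S phase genes lie on both sides.

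Of 12 listed partners of the methylation enzymes 10 were tested, with 1 higher and 1 lower in cytokine PGCLCs and 1 higher and 3 lower in Nanog PGCLCs (median -0.11 and 0.13), where 53.4% and 52.4% of all genes were called. Dppa3 (Stella), which in the mouse zygote shields methylated DNA from TET oxidation, was the member higher in both, by 1.22 ± 0.10 and 1.40 ± 0.10 (limma adjusted p = 3.6e-05 and 2.0e-05). Setdb1, a histone methyltransferase that silences transposons, fell by 0.55 in Nanog PGCLCs (8.79 and 8.74 in mESCs, 8.22 and 8.21 in Nanog PGCLCs, limma adjusted p = 0.0041). Trim28, the corepressor that works with it, fell by 0.54 (13.11 and 12.97 against 12.55 and 12.44, limma adjusted p = 0.0025). With median scaling 5 of these partners were higher and 1 lower in Nanog PGCLCs, and Setdb1 was not called (-0.25). Cdca7, the partner of Hells, was not called in any comparison, at -0.09 and 0.12 against mESCs and 0.21 between the PGCLC groups (limma adjusted p = 0.483, 0.350 and 0.188). Prdm14, a germ cell factor known in mESCs to repress Dnmt3b and Dnmt3l, was higher by 0.67 ± 0.13 in cytokine PGCLCs (limma adjusted p = 0.0038). Its mESC values of 7.45 and 7.08 lay near background, and it was not detected on mESC replicate 2. In Nanog PGCLCs it was higher by 0.52 ± 0.13 (adjusted p = 0.0129), which failed without replicate 2 of the mESCs (0.33) and again without replicate 1 of the Nanog PGCLCs (0.44).

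Of 10 other TET and demethylation genes 4 were tested, and 3 were higher and 1 lower in each PGCLC group (median 0.45 in cytokine and 0.43 in Nanog PGCLCs), where 29.3% and 27.4% of all genes were called higher. Gadd45a, a stress gene proposed to promote demethylation, read 9.18 and 9.22 for mESCs, 10.24 and 10.31 for cytokine PGCLCs, and 10.61 and 10.54 for Nanog PGCLCs. These were rises of 1.07 ± 0.09 and 1.38 ± 0.09 (limma adjusted p = 5.6e-05 and 1.8e-05), and its other probe gave 0.53 and 0.77. Its relative Gadd45b moved the other way, by -0.90 ± 0.15 in cytokine PGCLCs (limma adjusted p = 0.0013), and was at least 2.12-fold lower in Nanog PGCLCs, where it was not detected (adjusted p = 0.000101). Ogt, which binds TET proteins and adds sugar residues, was higher by 0.47 ± 0.12 and 0.54 ± 0.12 (limma adjusted p = 0.0104 and 0.0056). The first Ogt call was lost without mESC replicate 1 (0.40) and without cytokine PGCLC replicate 2 (0.34). Its other 2 probes gave 1.12 and 1.34 for the cytokine group but 0.62 and 0.82 for the Nanog group, so the probes disagree on which PGCLC group is higher. Tet3, the third TET gene, was not among the tested genes.

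In base excision repair 10 of 16 genes were tested, with 5 higher and 1 lower in cytokine PGCLCs and 4 higher and 1 lower in Nanog PGCLCs (median 0.20 in each). These 6 and 5 of 10 called genes stand beside 53.4% and 52.4% of all genes. Parp1, which signals DNA breaks, was higher by 0.78 ± 0.09 in cytokine PGCLCs (11.78 and 11.79 against 12.59 and 12.54, limma adjusted p = 0.000220). In Nanog PGCLCs it was higher by 0.715 ± 0.089 (limma adjusted p = 0.00036). The uracil glycosylase gene Smug1 was at least 1.39-fold and at least 1.08-fold higher in cytokine and Nanog PGCLCs (limma adjusted p = 0.000269 and 0.0017). Apex1, the endonuclease that cuts after a glycosylase, was the member called lower. It read 9.76 and 9.96 for mESCs, 9.32 and 9.08 for cytokine PGCLCs, and 8.58 and 8.83 for Nanog PGCLCs. Its changes were -0.66 ± 0.13 and -1.16 ± 0.13 (limma adjusted p = 0.0040 and 0.000252). Mutyh, a glycosylase for adenine opposite damaged guanine, was higher in Nanog PGCLCs by 0.72 ± 0.09 and in cytokine PGCLCs by 0.53 ± 0.09 (limma adjusted p = 0.000441 and 0.0020).

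For the supply of methyl groups and 2-oxoglutarate, the cosubstrate of TET enzymes, 12 of 17 genes were tested. In cytokine PGCLCs 1 was higher and 5 lower (median -0.08), and in Nanog PGCLCs 2 were higher and 5 lower (median -0.03). The shares of all genes called were 29.3% higher and 24.1% lower for the first comparison. For the second they were 27.4% higher and 24.9% lower. For Nanog PGCLCs, median scaling gave 4 higher and 3 lower (median 0.25), and the authors' value table, the variance trend and no background correction gave 5 and 5. Idh1, a cytosolic enzyme that makes 2-oxoglutarate, read 10.23 and 10.38 for mESCs, 8.24 and 8.41 for cytokine PGCLCs, and 8.80 and 8.89 for Nanog PGCLCs. Its changes of -1.98 ± 0.11 and -1.46 ± 0.11 (limma adjusted p = 7.8e-06 and 2.8e-05) exceeded those of every member. The mitochondrial Idh2 was higher in Nanog PGCLCs by 0.54 ± 0.15 (limma adjusted p = 0.0165), a call lost without mESC replicate 1 (0.40), without Nanog PGCLC replicate 2 (0.39) and without the filter on dim probes. Shmt2, which feeds one-carbon units into the methyl cycle, changed by -0.86 ± 0.11 in Nanog PGCLCs and by -0.67 ± 0.11 in cytokine PGCLCs (limma adjusted p = 0.000412 and 0.0015). Idh3a, a subunit of the mitochondrial enzyme that makes 2-oxoglutarate in the citric acid cycle, changed by -1.32 in cytokine PGCLCs (limma adjusted p = 4.1e-05), although its other probe gave -0.33. In Nanog PGCLCs it changed by -0.50 (limma adjusted p = 0.0050), while the other probe gave 0.07.

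S phase genes, whose products work where Dnmt1 and Uhrf1 do, did not move in 1 direction. Of 28 listed, 25 were tested, with 6 higher and 10 lower in cytokine PGCLCs (median -0.01) and 4 higher and 5 lower in Nanog PGCLCs (median -0.09, or 4 higher and 1 lower with median scaling). Between the PGCLC groups 3 were higher in Nanog PGCLCs and 0 lower. Of all genes, 10.5% were called higher and 10.2% lower between these groups. Against mESCs, the cytokine comparison called 29.3% of all genes higher and 24.1% lower. The Nanog comparison called 27.4% higher and 24.9% lower. The cyclin gene Ccne1 read 8.81 and 9.13 for mESCs, 7.58 and 7.82 for cytokine PGCLCs, and 8.31 and 8.51 for Nanog PGCLCs, the order seen for Uhrf1. It changed by -1.27 ± 0.14 in cytokine PGCLCs (limma adjusted p = 0.000211). The polymerase gene Pole was higher there by 0.70 ± 0.09 (limma adjusted p = 0.000451), and Cdc45, which helps open DNA for replication, by 0.66 ± 0.10 (adjusted p = 0.0011). In Nanog PGCLCs Pole and Cdc45 were also higher, by 0.60 ± 0.09 and 0.55 ± 0.10 (limma adjusted p = 0.000999 and 0.0029). Gins2, which works with Cdc45, changed by -0.76 ± 0.13 in cytokine PGCLCs (limma adjusted p = 0.0016). Chaf1b, a subunit of the complex that loads histones on new DNA, was higher in Nanog than in cytokine PGCLCs by 0.70 ± 0.10 (limma adjusted p = 0.0034). In Nanog PGCLCs against mESCs Rfc4 was higher by 0.86 ± 0.18 (limma adjusted p = 0.0049) and the polymerase gene Pold1 by 0.68 ± 0.09 (limma adjusted p = 0.000466). The cyclin gene Ccne2 changed there by -0.73 ± 0.13 (limma adjusted p = 0.0022).

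Germline genes known to be silenced by promoter methylation in somatic cells were sparse among the tested genes, with 6 of 18. In cytokine PGCLCs 1 was higher and 3 were lower, and in Nanog PGCLCs 1 was higher and 2 were lower. The medians were -0.18 and -0.08. Among all genes, the cytokine comparison called 29.3% higher and 24.1% lower, and the Nanog comparison 27.4% higher and 24.9% lower. Tex19.1, a gene that restrains retrotransposons, stood at 11.27 and 11.22 for mESCs, 9.76 and 9.67 for cytokine PGCLCs, and 9.55 and 9.39 for Nanog PGCLCs. It changed by -1.53 ± 0.10 and -1.77 ± 0.10 (limma adjusted p = 1.6e-05 and 7.9e-06). Tdrkh, a partner of Piwi proteins, was detected only on the cytokine PGCLC arrays and was at least 1.31-fold higher there than in mESCs (limma adjusted p = 1.8e-05). It was also the 1 called higher in Nanog PGCLCs, where neither group was above background, so no fold is given. Ddx4, an RNA helicase of germ cells, changed by -0.36 and -0.34 in cytokine and Nanog PGCLCs, calls lost in 6 and 9 of 16 settings. Dazl, a germ cell RNA-binding protein named after its values were seen, changed by 0.01 and 0.03 (limma adjusted p = 0.945 and 0.843).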

How the data were processed

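Expression was read on 6 arrays, 2 per group, grouped by the labels. The deposited intensity values are per-probe scanner summaries with differing array medians, so they hold no normalization. The deposited detection p-values, named so in the column headers, were taken to compare a probe with its array's negative controls. The authors' deposited log2 table holds 11542 probes whose columns share quantiles. The submitters' processing notes name limma without a version. How that table was background corrected is unknown here.

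Here raw intensities were corrected with normexp (limma 3.58.1, R 4.3.3, offset 16, control level inferred from detection p-values), quantile normalized and log2 transformed. Probes with detection p below 0.01 on at least 2 arrays were kept (10673). Of these, 9314 had 1 gene symbol in the platform annotation, giving 6823 genes. The 3 groups were fitted in 1 limma model (3 residual and 4.92 prior degrees of freedom), two-sided, with Benjamini-Hochberg adjustment over the 10673 probes and calls at adjusted p below 0.05. Other genes were read by their named probe with the highest mean. A gene not detected on either array of a group has an "at least" fold, from the bright mean against, per array, the higher of its own signal and the lowest detected signal. Alternatives changed background correction, normalization, filter, moderation, block, unit of testing and arrays used, and the workflow was tested on simulated data. Members and lists were chosen with earlier results of these data known. Named list genes were up to 2 called per direction, list and comparison with the largest change, plus Prdm14, Tet3, Cdca7 and Uhrf2. Shmt1, Gldc and Tuba3a also met this rule and are not described above. The number of arrays limits the precision.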

Additional observations from a re-analysis of the deposited data

How the results depend on the processing

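Over 16 alternatives, 339 of 381 member values kept their direction and side of the threshold, 17 lost a call, 21 gained one and 4 changed sign without a call. The sign changes were Tdg in Nanog PGCLCs against mESCs with median scaling (0.14) and Mbd4 between the PGCLC groups with median scaling (0.011), without cytokine PGCLC replicate 1 (0.18) and without Nanog PGCLC replicate 1 (0.07), where leaving out 1 array gave -0.29 to 0.18. Leaving out 1 array gave 4 to 5 member probes called in Nanog PGCLCs against mESCs, 6 to 7 in cytokine PGCLCs against mESCs and 1 to 4 between the PGCLC groups (1 without cytokine PGCLC replicate 1, 2 without cytokine PGCLC replicate 2 or Nanog PGCLC replicate 2). The same settings gave 4488 to 5153, 4175 to 5548 and 783 to 2160 probes called in all, and a lone array is then assumed to vary like the others. Without the filter on dim probes 1421 probes, in place of 2145, were called between the PGCLC groups. With 1 probe per gene 3735 genes were called in cytokine PGCLCs, against 5617 probes, since fewer features were tested. Median scaling moved the median of all probes to 0.21 and 0.15 in Nanog and cytokine PGCLCs against mESCs, and the called probes were then 76.6% and 71.8% higher, against 51.3% and 52.6%, and 64.8% against 51.7% between the PGCLC groups. Replicates of different groups share only a number (their deviations correlated at 0.00 to 0.08), and the replicate block left 5, 7 and 3 member probes called, against 5, 7 and 4.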
